A study of Mus musculus with 2 samples.

Results

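Binding of HA-tagged Dido3 was examined at 6 pluripotency genes of mouse embryonic stem cells, namely Zfp42, Pou5f1, Sox2, Nanog, Klf4 and Esrrb. Dido3 is one of the proteins made from the Dido1 gene, here fused to HA, a small epitope for which antibodies exist. The genes were chosen by name and through the values of the peak list, the high score of the Zfp42 peak being known beforehand. Their values are therefore given as a description, with no test. Each gene was given a window on the mm9 genome, between 23 and 185 kb long and 319 kb in all. A peak belonged to a gene when it overlapped the gene's window by at least 1 bp. This gave 13 of the 2888 peaks of the list, and all 6 windows held at least 1, where 2.03% of tiles of the median window length did (10.6% of tiles as long as the Esrrb window).

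The cells were C57BL/6 embryonic stem cells of the genotype Dido3deltaCT+HADido3, meaning that the Dido3deltaCT allele was present and HA-Dido3 had been added. The medium contained LIF (leukemia inhibitory factor), which supports self-renewal of these cells. ChIP-seq, in which DNA fragments crosslinked to a protein are captured with an antibody and sequenced, was done with 1 anti-HA library and 1 input library of the same genotype without antibody. No anti-HA library of cells without the tag was analysed here, so capture through the tag and non-specific capture cannot be told apart, and nothing below has a replicate check.

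Pou5f1 (Oct4), Sox2 and Nanog are transcription factors that form the core of the network holding embryonic stem cells undifferentiated. Pou5f1 and Sox2 bind DNA side by side at many enhancers, those of their own genes included. Klf4, a Krüppel-like zinc finger protein that responds to LIF, and Esrrb, an orphan nuclear receptor, belong to the naive part of this network. Zfp42, also called Rex1, encodes a zinc finger protein and is a widely used marker of naive cells, being switched off early in differentiation. Dido3 carries a PHD finger, a domain that binds methylated histone H3 tails.

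For each gene the strand was taken from RefSeq promoter sequences (GRCm38.p6), which held all 6 members. The promoters of Zfp42 and Klf4 are shown because these genes mark the contrast in peak position described below. Zfp42 had the strongest peak, far on the 3' side of its window, and Klf4 was the only member whose peak lay on the side of its start. That Klf4 peak was among the lowest scoring of the list, so the contrast rests on 1 weak peak. Whether either promoter lay under a peak was not analysed here. Each run gives the 250 bases before the listed start, 5' to 3' on the gene's strand, at chr8:43307010-43307259 (minus strand) and chr4:55532476-55532725 (minus strand) of GRCm38.p6. Capitals mark the octamer ATTTGCAT, the motif bound by Pou5f1 and other POU factors.
Zfp42: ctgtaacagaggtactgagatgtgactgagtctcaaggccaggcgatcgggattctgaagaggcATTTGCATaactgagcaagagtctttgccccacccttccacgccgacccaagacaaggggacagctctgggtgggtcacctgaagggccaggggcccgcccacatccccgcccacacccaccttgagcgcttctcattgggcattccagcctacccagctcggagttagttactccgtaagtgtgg
Klf4: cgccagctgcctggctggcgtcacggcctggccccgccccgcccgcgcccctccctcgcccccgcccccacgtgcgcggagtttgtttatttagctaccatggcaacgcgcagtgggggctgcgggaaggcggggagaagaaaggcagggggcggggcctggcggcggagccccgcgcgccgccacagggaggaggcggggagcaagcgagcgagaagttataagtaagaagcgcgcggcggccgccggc
The octamer of Zfp42 begins 186 bases before the start. Searched on both strands, the same letters occurred in 526 of 32851 RefSeq promoters of this length (1.60%) and in none of the other promoters listed for the members. The 2 promoters also differ in base composition. The Zfp42 run holds 9 CpG dinucleotides and the Klf4 run 32, against a median of 6 (quartiles 2 and 16) over all promoters. Among the other members, the Sox2 promoter holds 27 CpG, those listed for Pou5f1 8 and 6, for Nanog 3 and 2, and for Esrrb 6 and 3. The peaks of all these genes lay on the 3' side. Whether CpG content goes with the side of the peaks was not tested.

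The peak caller's values are used as the authors deposited them. The tag count is the number of ChIP tags in a peak, the score is the caller's p-value on a negative log10 scale, multiplied by 10, and the fold is the ChIP signal at the summit over the background the caller expected. The false discovery rate is listed in percent, and ranks run from the highest score. Intervals of tag counts are exact Poisson intervals at 95% confidence and cover counting error only. The reads per library are unknown from the list, so a stretch without a peak cannot be read as a stretch without binding.

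Zfp42 carried one of the strongest peaks of the whole list. The peak lay on chromosome 8 (44375136 to 44380258), was 5123 bp long and held 419 tags (interval 379.8 to 461.1). Its score of 3136.91 ranked 2 of 2888, its fold was 45.01 and its listed false discovery rate was 0%. Only 3 peaks of the list were at least as long and 6 held at least as many tags, itself included in both counts. By fold it stood lower, with 39 peaks at 45.01 or more, and by tag density lower still. Its 81.8 tags per kb were reached by 75 peaks (2.60%), while the list's median was 38.8. The Zfp42 peak thus ranked higher by its length and tag total than by its height. In rank it stood between a chromosome 6 peak (51407508 to 51411255) of 3748 bp, scored 3172.42, and a chromosome 13 peak (98256245 to 98265392) of 9148 bp, scored 3100.

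A second, weaker peak lay beside it. It covered 648 bp (44374104 to 44374751) with 22 tags, a score of 108.99 and a fold of 13.7, and 384 bp separated the pair. Together they spanned 6155 bp with 441 tags (interval 400.8 to 484.1) and covered 18.0% of the window, against 1.46% to 4.13% in the other 5 windows. The summit of the long peak was off centre. It lay 988 bp from the peak's end on the 3' side and 4134 bp from the end facing the gene's start.

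The Zfp42 peaks stood alone on a long stretch of chromosome 8. On the 3' side the next listed peak was 9.48 Mb from the window, and on the side of the start it was 4.36 Mb away. Those outer peaks held 13 tags (score 82.06, rank 1306) and 12 tags (score 54.55, rank 2378). Chromosome 8 as a whole had 1.03 peaks per Mb of its span in the list. The protein-coding neighbours of Zfp42 in GRCm38 were Adam26b before its start and Triml2 past its end. The next listed gene of any type past its end was Gm2221, and peaks were not assigned between these genes here.

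**Figure D1:**
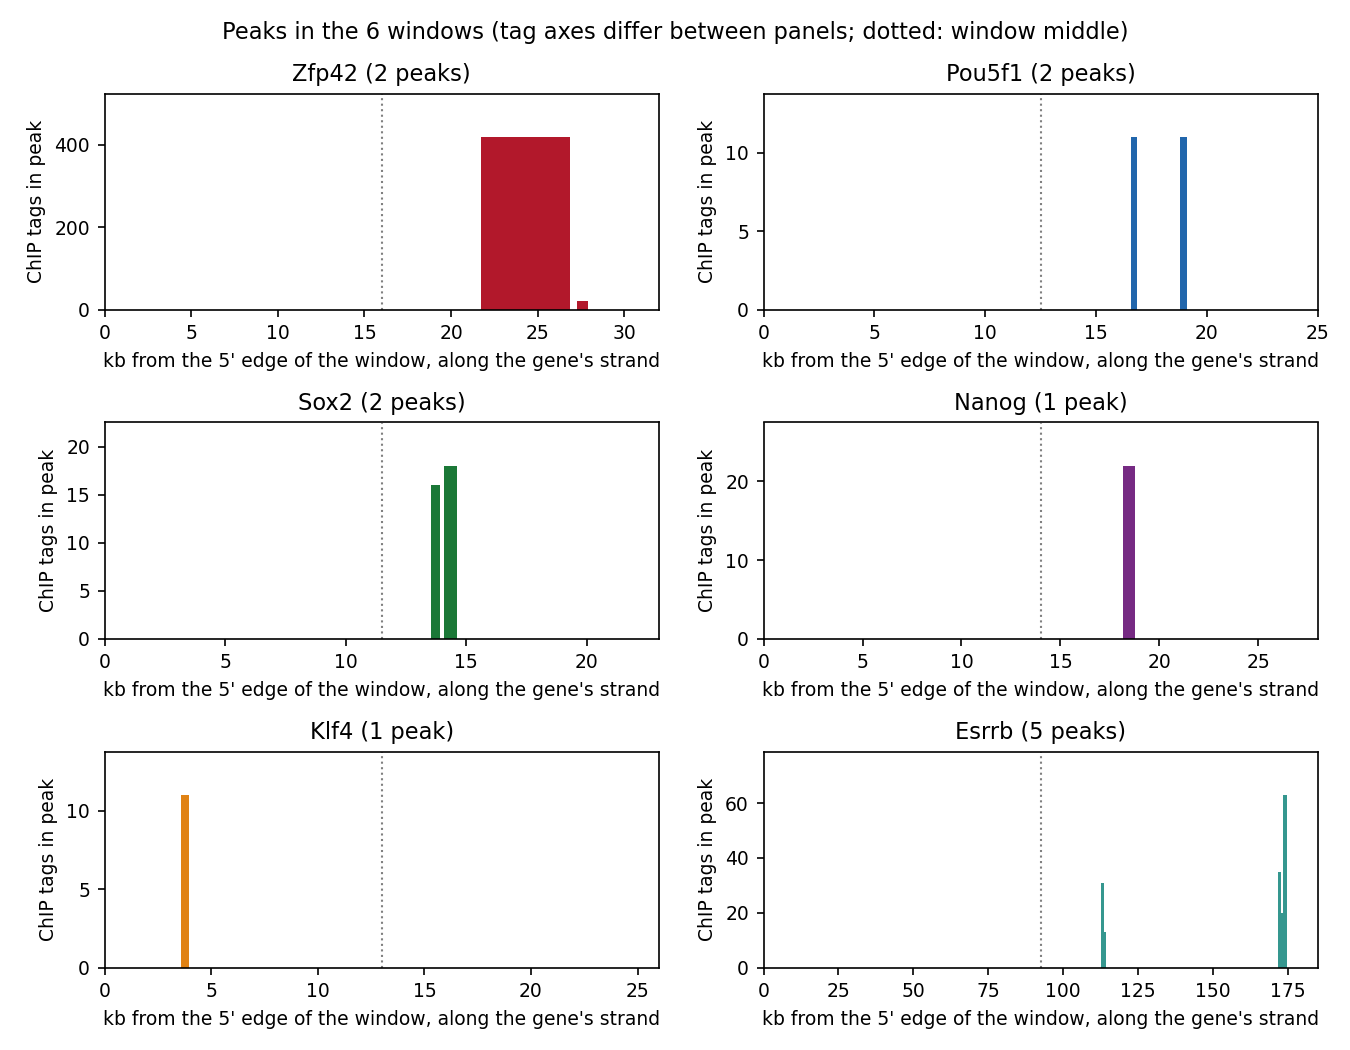
Peaks in the 6 windows, one panel per gene. The horizontal axis is the distance in kb from the window's edge on the side of the start, along the gene's strand, the height of each bar is the peak's ChIP tag count, bar width is peak length (short peaks are drawn at a minimum width), and the dotted line is the window's middle. In 5 panels all bars stand right of the middle, and in the Klf4 panel the bar stands left of it.

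The core factor genes had peaks of 281 to 609 bp with 11 to 22 tags, where the list's medians were 391.5 bp and 15 tags. The peaks of Pou5f1 lay below both medians and those of Sox2 and Nanog above both. Pou5f1, on chromosome 17, had 2 peaks of 281 bp (35649561 to 35649841) and 312 bp (35651773 to 35652084). Each held 11 tags (interval 5.49 to 19.7). Their scores of 50.8 and 59.62 ranked 2762 and 2013, and their folds were 8.52 and 11.74. The listed false discovery rates were 11.04% and 6.75%, both over the limit of 5% used below. The listed rate does not always follow the score, as a peak ranked 7 by score (2565.8) is listed at 14.29%. They lay 8.16 and 5.92 kb from the window's 3' edge, and in GRCm38 the next gene past the end of Pou5f1 is Tcf19, on the opposite strand. Peaks were not assigned between Pou5f1 and Tcf19 here.

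Sox2 carried a close pair on chromosome 3. The peaks covered 393 bp (34552532 to 34552924) and 556 bp (34553063 to 34553618), with 138 bp between them. They held 16 and 18 tags, or 34 in all (interval 23.5 to 47.5), at folds of 13.7 and 11.74. Scores of 92.32 and 95.65 ranked 1152 and 1096, and both false discovery rates were under 1% (0.87% and 0.91%). The pair lay 9.08 and 8.38 kb from the 3' edge of the window. Sox2 lies within the long non-coding RNA gene Sox2ot in GRCm38, and peaks were not assigned between these genes here.

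Nanog, on chromosome 6, had a single peak of 609 bp (122665141 to 122665749). It held 22 tags (interval 13.8 to 33.3), with a score of 114.09 (rank 893), a fold of 11.74 and a false discovery rate of 0.9%. It was thus the highest scoring peak among the core factor genes, the next being a Sox2 peak at 95.65. The weaker peak of Zfp42, which is not one of these genes, scored 108.99. The Nanog peak lay 9.25 kb from the window's 3' edge. A much stronger peak stood just outside this window, 2.22 kb past its 3' edge (122677221 to 122678876). That peak was 1656 bp long with 178 tags, a score of 1321.27 (rank 36) and a fold of 62.05. The next protein-coding gene past the end of Nanog in GRCm38 is Slc2a3, which encodes a glucose transporter, and whether the outside peak lay in that gene was not analysed here. It counted as no member peak.

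The naive factor genes differed from each other in number and place of peaks. Klf4, on chromosome 4, had a single 381 bp peak (55552034 to 55552414) that held 11 tags (interval 5.49 to 19.7). Its score of 50.8, shared with a Pou5f1 peak, was among the lowest of the list (2.49% of peaks scored lower), and its false discovery rate was 11.04%. It lay 3.59 kb from the window's edge on the side of the start and 22.0 kb from the 3' edge. In GRCm38 the next listed gene before the start of Klf4 is the long non-coding RNA gene Gm12506. On that side no further peak followed for 4.22 Mb beyond the window.

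Esrrb had the most peaks, in the longest window. Per Mb of window it had the fewest of the members, 27.0 against 38.5 for Klf4 and up to 87.0 for Sox2. The 5 Esrrb peaks held 162 tags (interval 138.0 to 189.0) and formed 2 groups 57783 bp apart on chromosome 12. The first group of 2 spanned 1288 bp (87802760 to 87804047) with 44 tags (interval 32.0 to 59.1). Its peaks of 741 and 315 bp scored 134.66 and 66.45. It stood 71.0 kb from the window's 3' edge, well inside the window. In GRCm38 Esrrb overlaps the long non-coding RNA gene Gm40483, and past its end the next listed gene is Gm52007. Peaks were not assigned between these genes here.

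The second Esrrb group lay toward the 3' end of the window. Its 3 peaks spanned 3027 bp (87861831 to 87864857) with 118 tags (interval 97.7 to 141.3), 10.1 kb from the 3' edge. They were 748, 485 and 1425 bp long with 35, 20 and 63 tags. The longest had a score of 339.81 (rank 274), second among the members' peaks, and a fold of 15.65, while the 748 bp peak had a score of 201.48 and the higher fold of 19.57. The long Zfp42 peak held 6.65 times the tags of this best Esrrb peak. The tag intervals of the Esrrb and the Zfp42 peak were 48.4 to 80.6 and 379.8 to 461.1, over lengths of 1425 and 5123 bp. These intervals cover counting error only, and the high score of the Zfp42 peak was known beforehand. The comparison is therefore a description and no test.

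**Figure D2:**
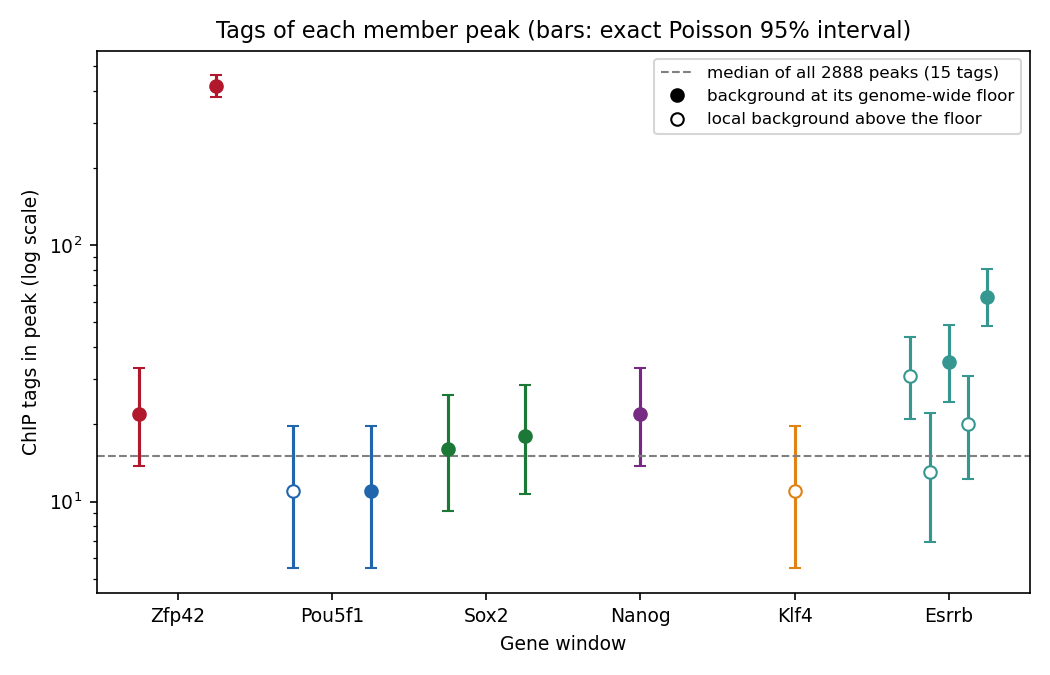
ChIP tags of each of the 13 peaks by gene, on a log axis, with exact Poisson 95% intervals as bars. Filled points had their background at the genome-wide floor, open points had a local background above it, and the dashed line is the median of all listed peaks (15 tags). The long Zfp42 peak stands at 419 tags and the other 12 lie between 11 and 63.

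Peaks lay on the 3' side of the window in 5 of the 6 genes. The ends of the genes in mm9 were not used here, so the place of a peak is given along its window, in the direction of transcription, and not relative to exons. By this measure 12 of 13 peaks lay beyond the middle of their window and 1, that of Klf4, before it. The Klf4 peak was weak, with 11 tags and a false discovery rate of 11.04%, and fell outside a window narrowed by 5 kb on each side. Of the 12, 5 were those of Esrrb, and the Sox2 peaks passed the middle by only 2.23 and 2.84 kb. Close peaks are counted singly here, and with peaks within 1 kb joined the windows held 8 regions. The middle depends on where the window edges were set. The like share for peaks at other genes was not analysed here, so the count shows no tendency of its own. For Pou5f1, Sox2 and Nanog the peaks were 5.92 to 9.25 kb from the 3' edge, and 13.5 kb or more from the edge before the start. The long Zfp42 peak was 5.14 kb from the 3' edge and 21.7 kb from the other. In Esrrb, 3 peaks were 10.1 to 12.4 kb from the 3' edge and 2 stood deeper within the window. Where peaks sit relative to the last exon, the gene body or the sequence past the end was not analysed here. With windows of unequal length, the distances are not comparable as shares of a gene.

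All 6 windows held a peak, while 2.03% of 92515 tiles of 27 kb, the median window length, did so. These tiles were laid end to end over every chromosome, from its first listed peak to its last. For the 185 kb of Esrrb the like share was 10.6% of 13492 tiles. The tiles include long stretches without genes, and the members were chosen with the list in view, so these shares are the setting of the count and no test of it. In density, the windows had 40.8 peaks per Mb and the whole list 1.16 per Mb. Without the Esrrb window the density was 59.7 per Mb.

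The caller's values of the members' peaks were set beside those of the whole list. A score of at least 100 was reached by 6 of the 13 peaks and by 35.9% of the list. These were both Zfp42 peaks, the Nanog peak and 3 Esrrb peaks, which leaves 5 of 12 without the long Zfp42 peak. A false discovery rate of at most 5% was listed for 10 of 13 and for 64.6% of the list, the 3 peaks past it being those of Pou5f1 and Klf4. Without the long Zfp42 peak the count was 9 of 12. A fold of at least 20 was reached by 1 of 13, the long Zfp42 peak, and by 14.5% of the list. The other 12 peaks had a median length of 520.5 bp (281 to 1425), a median of 19 tags (11 to 63), a median score of 94.0 (50.8 to 339.81) and a median fold of 12.6 (8.52 to 19.57), where the list's medians were 391.5 bp, 15 tags, 75.3 and 13.7. In length, tags and score their medians thus lay above those of the list, and in fold below. Of these 12 peaks, 5 were those of Esrrb, so 1 gene weighs heavily in the medians. The tag density of the 12, 28.9 to 46.8 tags per kb with a median of 39.9, lay around the list's 38.8.

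**Figure D3:**
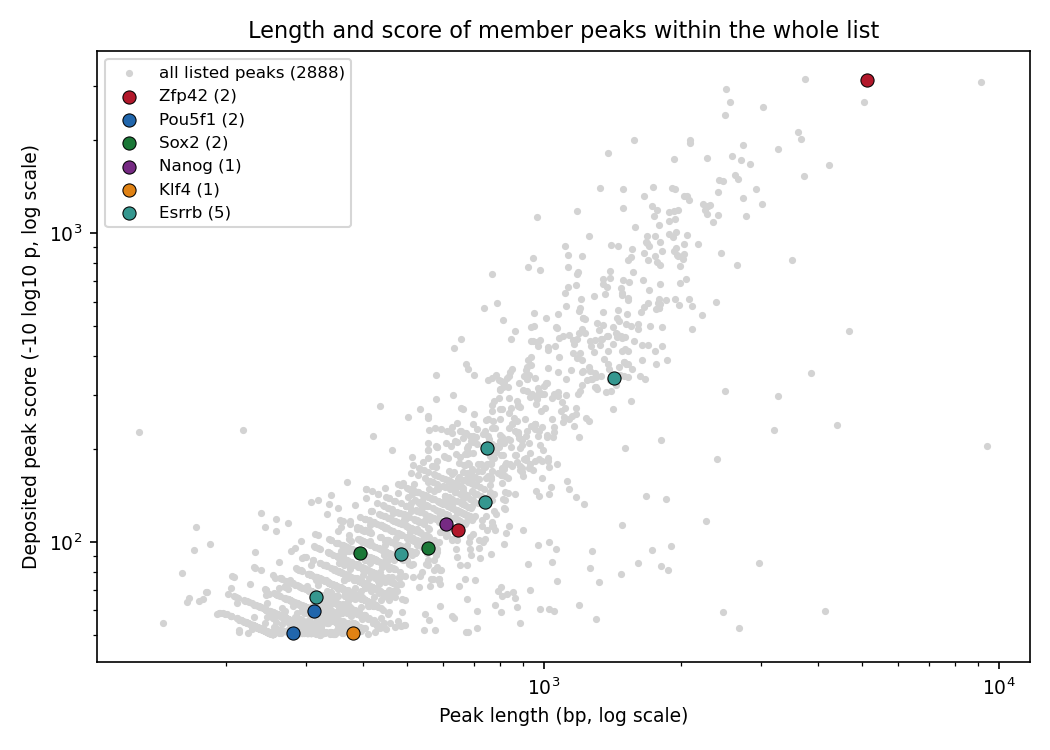
Length in bp and deposited score of all 2888 peaks (grey) and of the 13 member peaks (coloured by gene), both on log axes. The long Zfp42 peak stands at the upper right at 5123 bp and 3136.91, and the other 12 lie between 281 and 1425 bp within the grey cloud.

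The 13 peaks had 692 tags in all, and 60.5% of them were in the long Zfp42 peak. The other 12 shared 273 tags. This share depends on where the windows end, and it was 47.6% of 880 tags with windows widened by 10 kb on each side. The order of the windows by tags, with windows of unequal length, was Zfp42 with 441, Esrrb with 162, Sox2 with 34, Nanog and Pou5f1 with 22 each and Klf4 with 11. Neighbours in this order from Sox2 to Klf4 had overlapping counting intervals. The intervals hold counting error of 1 library only, and the Zfp42 peak was known beforehand. The Esrrb window is 185 kb long and that of Sox2 23 kb. The order is therefore a description, and differences between the genes were not tested. With windows widened by 10 kb, Nanog took in the strong peak past its window and held 210 tags (interval 182.6 to 240.4), above Esrrb in the order but with an interval that overlaps that of Esrrb.

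The background behind the folds also varied among the members. Folds in this list fall on whole multiples of 1.957 where the caller's background is at its genome-wide floor, and elsewhere a higher local background was used. Of the 13 peaks, 8 were at the floor, among them both Zfp42 peaks, both Sox2 peaks and the Nanog peak. The 5 with a local background above the floor were 1 of Pou5f1, that of Klf4 and 3 of Esrrb. Over the list 27.4% of peaks were above it. A higher background lowers a fold, so the folds of these 5 are not on one footing with the rest, and its part in their values was not tested.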

How the data were processed

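Peaks were called on 1 anti-HA ChIP library, with 1 input library in the series. The submitters' processing notes list the build mm9 and the tools Bowtie, SAMtools and MACS 1.4. How reads were filtered and which options were set is not given in the sources used here. The authors deposited, per the file headers, each peak's position with its tag count, its score, its enrichment as a fold ratio and its false discovery rate in percent.

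Windows were those of the selection rule, and positions are counted from 1. The members and lists were chosen with earlier results of these data known. Named were all 6 members, each peak in their windows and the nearest peaks outside. Peaks adjacent in rank are given only for Zfp42, and outside peaks only where they bear on a result. The fold step was found by grid search with a tolerance of 0.01. A list of other pluripotency genes was planned but not analysed here, because gene positions in mm9 were not used. RefSeq tables (GRCm38.p6) served for strand, promoter sequence (members matched: 6 of 6) and the order of neighbouring genes, and no coordinates were converted. The overlap and tile steps were tested on simulated data. Computation used Python 3.11.15 with scipy 1.17.1, pandas 2.3.3 and numpy 2.4.6, and plots used matplotlib 3.10.9.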

Additional observations from a re-analysis of the deposited data

How the results depend on the processing

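The number of members with a peak went from 6 to 4 at a false discovery rate of at most 5% (0 peaks and 0 tags for Pou5f1 and Klf4), where 1.39% of 27 kb tiles held a peak, and to 3 at a score of at least 100 (0 peaks and 0 tags for Pou5f1, Sox2 and Klf4), where 0.882% of tiles did. At that score Esrrb had 3 peaks with 129 tags, the windows together held 6 peaks in place of 13, and their density was 18.8 per Mb in place of 40.8, while that of the whole list went from 1.16 to 0.416 per Mb. With peaks within 1 kb joined, the windows held 8 regions, with 1 each for Zfp42 and Sox2 and 2 for Esrrb. Widening the windows by 10 kb on each side gave Nanog 3 peaks and 210 tags, through the strong peak just past its window and a weak one beside it. Widening by 50 kb gave the same values for Nanog, 35 tags for Pou5f1, and 17.4 peaks per Mb, with longer windows lowering the density by construction. Narrowing by 5 kb on each side left 1 peak for Zfp42, the long one, and 0 peaks and 0 tags for Klf4. The tile share was 1.75% at 23 kb and 10.6% at 185 kb, in place of 2.03%. Taking the summit in place of the overlap moved no count, and shifting the tiles by a part of their length moved the share by less than its interval. Leaving out the Zfp42 or the Esrrb window, chosen after the data were seen, moved the density by less than its counting interval. No paired analysis was possible because each kind of library was made once. Depth is unknown, the least tag count of a listed peak was 9, and how depth limits weak peaks such as those of Pou5f1 and Klf4 was not tested.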
